A study of Mus musculus with 14 samples.

Results

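Eph receptors are the largest family of receptor tyrosine kinases, and their ligands, the ephrins, sit in the membrane of neighbouring cells. Contact between cells therefore starts signals in both directions, and these signals govern repulsion, adhesion and the sorting of cells into compartments. In the intestine the B-type receptors are known as Wnt targets of the crypt base and the B-type ephrins are known in the differentiated cells above it, and this counter-gradient keeps proliferating and differentiated cells apart. The expression of 9 genes of the family was examined, namely the B-type receptors *Ephb2*, *Ephb3*, *Ephb4* and *Ephb6*, the A-type receptors *Epha2* and *Epha4*, the B-type ephrins *Efnb1* and *Efnb2*, and the A-type ephrin *Efna1*. They were chosen by name as the probes that the array files assign to these genes, which gave 12 of 55681 probes and 9 of 36161 gene names. *Ephb4*, *Ephb6* and *Efnb2* had 2 probes and the others 1, and a gene with 2 was read from the brighter, with the other probe given beside it.

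RNA had been hybridised to 14 arrays, each carrying a single colour. Healthy small intestine (3 arrays) and colon (3) came as whole tissue from C57BL/6J mice. Macroscopic adenomas (3) and tissue adjacent to adenomas (2) came as whole tissue from APCmin/+ mice, which carry a mutant allele of the Wnt pathway inhibitor *Apc*. The methods of the study place all its mice on a C57BL/6J background. CT26 (3 arrays) is a colorectal carcinoma cell line of BALB/c origin, obtained from ATCC and grown without stroma. Wild-type animals were adults, and the age of the APCmin/+ mice was not given in the sources used here. The study's sample list puts all adenoma and adjacent pieces under 1 mouse and puts 1 colon sample under an APCmin/+ mouse, against its label, and nothing in the labels says that the CT26 replicates were separate cultures. The p-values below therefore measure the spread between these samples, part of which may be technical.

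Values are the log2 of the background-subtracted signal after the 75th percentile of the array had been subtracted, called the scaled log2 signal, so that 1 unit is a doubling. Levels of different genes are not comparable on this scale because each probe has its own response. Differences were tested with limma over all probes tested, with Benjamini-Hochberg adjustment, and a gene was called where the adjusted p was at most 0.01 and the log2 fold change reached 1.2 either way, the study's thresholds. All 9 genes passed the filter on dim probes in every comparison. Colon replicate 3 stood apart from the other colon arrays. Its correlation over probes was 0.939 and 0.937 with them, against 0.979 between them, and the median of 10 genes of small intestine enterocytes was 5.80 on it against -2.96 and -2.63 on the other colon arrays. The values of the 9 genes against colon are therefore also given without it. Small intestine replicate 1 had a median of 5.91 for the same enterocyte genes, against 8.86 and 9.20 on the other small intestine arrays. Its correlation over probes with those arrays was 0.980 and 0.979. Without this replicate 4 of the 9 genes were called between adenomas and small intestine. The share of all genes called without it was not computed, so this count cannot be set against it. Epithelial markers were well above background in all tissues (8 of 8 genes on every array), but on the CT26 arrays only 2 to 4 of 8 were.

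Of the 9 genes only *Ephb3* and *Ephb6* were called between adenomas and small intestine. The sequences of their probes bear on how those values can be read. The 60-base probe of *Ephb3*, the only one for this gene, ends in a run of 33 bases of alternating T and G. A run of 20 bases or more was found in 52 probes of the array and in no other probe of the 9 genes. The first 10 bases before the run and its start are shown for *Ephb3*, for *Epha5*, which is another receptor of the family, and for the genes whose pattern over the arrays was most like that of *Ephb3*. Capitals mark the run, and each line is a stretch of 30 bases, 5′ to 3′.
Ephb3: agccagagacTGTGTGTGTGTGTGTGTGTG
Epha5: acatcgaaatTGTGTGTGTGTGTGTGTGTG
4933425O20Rik: aatcatgataGTGTGTGTGTGTGTGTGTGT
Hemgn: atagacaataGTGTGTGTGTGTGTGTGTGT
Ung: agatttcaaaGTGTGTGTGTGTGTGTGTGT

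In mm9, the build of the array files, the *Ephb3* stretch lies at chr16:21223182-21223211 on the plus strand, within a probe that starts at base 3932 of transcript NM_010143. The *Epha5* stretch lies at chr5:84487357-84487386 on the minus strand. For contrast, the first 30 bases of the *Ephb2* probe (chr4:136211233-136211262, minus strand) and of the 2 probes of *Ephb6*, the brighter at chr6:41570442-41570471 and the dimmer at chr6:41564657-41564686 on the plus strand, hold no such run.
Ephb2: accagatccagtctgtagaggtttgacatt
Ephb6, brighter probe: cacccccaaatcctgctcttccaacagcct
Ephb6, dimmer probe: ttagtggcagctgtgggcacctgtgtagct

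*Ephb2*, the receptor whose surface level the study used to sort crypt cells, varied by less than 1 unit over all 14 arrays. Its scaled log2 signal was -0.70, -1.07 and -0.59 on the small intestine arrays, -0.70 and -1.07 in adjacent tissue, -0.34, -0.67 and -0.44 in adenomas, -0.84, -0.98 and -0.51 in colon and -1.19, -1.08 and -0.86 in CT26. The groups overlapped with their neighbours throughout the order from adenomas, the highest, to CT26, the lowest. *Ephb2* was not called in any comparison. Between adenomas and small intestine its log2 fold change was 0.30 (SE 0.19, limma adjusted p = 0.215), and between adenomas and adjacent tissue it was 0.40 (SE 0.19, limma adjusted p = 0.184), with the 3 adenoma arrays above both adjacent arrays.

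*Ephb3*, the receptor that acts together with *Ephb2* in positioning crypt cells, had a higher signal in adenomas and CT26 than in normal tissue. Its probe read 4.60, 4.06 and 4.62 in small intestine, 5.38 and 5.29 in adjacent tissue, 7.22, 6.29 and 6.32 in adenomas, 4.84, 4.42 and 5.15 in colon and 6.91, 6.26 and 6.23 in CT26. Adenomas and CT26 lay above all 8 arrays of normal and adjacent tissue, and adjacent tissue lay between. *Ephb3* was called in adenomas against small intestine, at 4.54-fold (log2 fold change 2.18, SE 0.30, limma adjusted p = 0.00143), and in CT26 against colon, at 3.16-fold (1.66, SE 0.34, limma adjusted p = 0.00468). Against adjacent tissue the log2 fold change in adenomas was 1.27 (SE 0.32, limma adjusted p = 0.0429), and against colon it was 1.80 (SE 0.34, limma adjusted p = 0.0236), neither past the threshold.

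Of the 51 other tested probes with such a run, 50 followed the course of *Ephb3* over the arrays (r of 0.964 or more), and the probe of *Igsf9* did not (r = 0.074, with a log2 fold change of -0.46 between adenomas and small intestine). Between adenomas and small intestine their median log2 fold change was 1.86 (quartiles 1.69 and 1.89), 50 of 51 were above 0 and 45 were called, while the median over all 29540 probes tested was -0.15. None of the 51 exceeded *Ephb3* in this comparison, the highest reaching 2.01. In CT26 against colon their median was 1.71, 48 of 51 were called, and 36 exceeded *Ephb3*. Between adenomas and adjacent tissue the median was 1.06 and 5 of 51 exceeded *Ephb3*. Over the 14 arrays the signal of *Ephb3* had a Pearson r of 0.977 with the median of these probes, and its r with single probes had a median of 0.988, a description over arrays that share their scaling. The genes most like *Ephb3* over the 14 arrays, *4933425O20Rik*, *Hemgn* and *Ung* (r 0.992 to 0.993 among 23642 genes), were all read from probes with a run of 31 to 36 bases. The part of the repeat in the values of *Ephb3* was not tested, and no second probe of the gene was on the array.

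**Figure D1:**
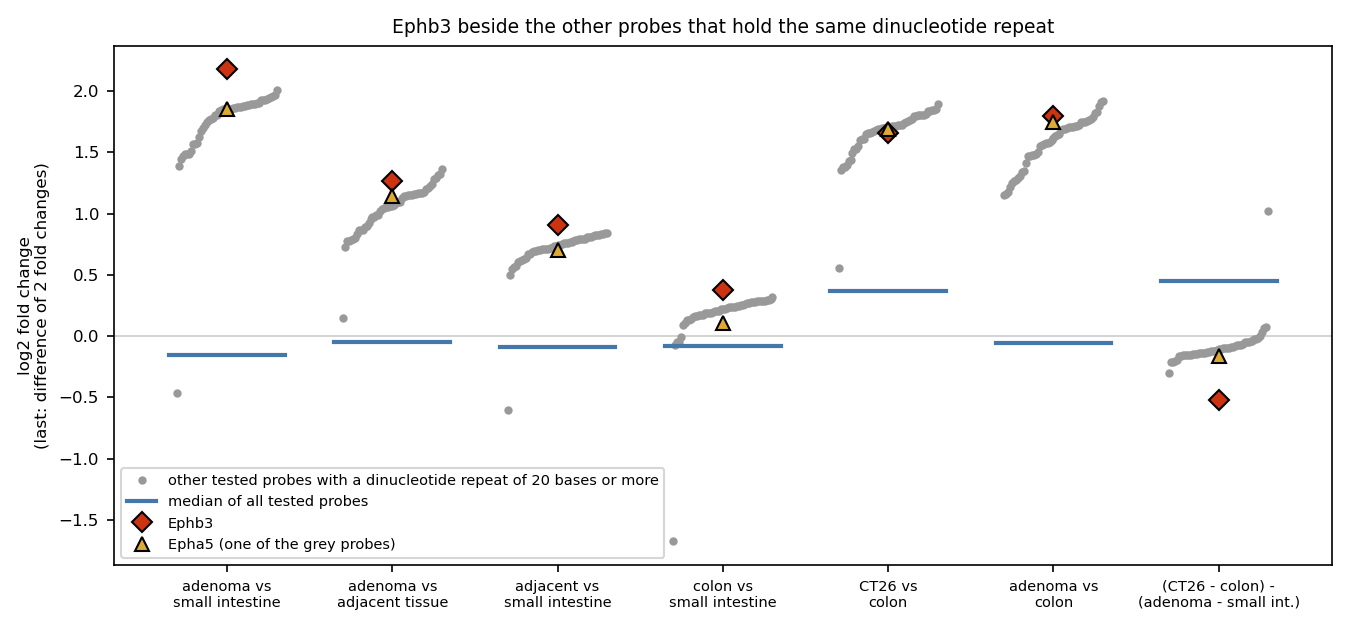
Log2 fold change (vertical axis) in each of 6 comparisons, and the difference between the 2 tumour contrasts, for *Ephb3* (red diamond), *Epha5* (yellow triangle), the 51 other tested probes with the repeat in ascending order (grey points) and the median of all tested probes (blue line). Apart from the probe of *Igsf9*, the lowest grey point in adenomas (-0.46 against small intestine) and in CT26 against colon (0.56), the grey points sit far above the blue line there, with *Ephb3* at 2.18 beside their median of 1.86 in adenomas against small intestine.

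*Ephb4*, a receptor best known for its place on venous endothelium, was not called in any of the 6 comparisons. Its scaled log2 signal was 2.005, 1.61 and 0.88 in small intestine, 1.99 and 2.31 in adjacent tissue, 2.29, 2.49 and 2.41 in adenomas, 2.48, 2.17 and 3.23 in colon and 0.42, 2.10 and 1.36 in CT26. The adenoma arrays were all above the small intestine arrays, and the small intestine and CT26 arrays overlapped. The log2 fold change between adenomas and small intestine was 0.90 (SE 0.29, limma adjusted p = 0.0359) by the brighter probe and 1.16 (SE 0.24, limma adjusted p = 0.00757) by the other, both under the fold limit. Between CT26 and colon it was -1.34 (SE 0.49, limma adjusted p = 0.0524) by the brighter and -0.99 (SE 0.43, limma adjusted p = 0.0893) by the other, with no overlap.

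*Ephb6*, a receptor without kinase activity, separated adenomas from every other group. The adenoma arrays read 0.63, 0.67 and 0.65, against -1.33, -1.15 and -0.98 in small intestine, -0.59 and -0.31 in adjacent tissue, -0.01, -0.94 and -0.999 in colon and -1.01, -1.77 and -1.27 in CT26. No other array reached the adenoma level, and the remaining groups overlapped with their neighbours. *Ephb6* was called against small intestine, at 3.49-fold (log2 fold change 1.80, SE 0.16, limma adjusted p = 0.000268). Against adjacent tissue the log2 fold change was 1.10 (SE 0.16, limma adjusted p = 0.011), and against colon it was 1.3 (SE 0.30, limma adjusted p = 0.0439).

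The dimmer probe of *Ephb6* did not show this pattern. It lies towards the start of the transcript (base 1259, against 3695 for the brighter probe), was well above background on 10 of 14 arrays, and read -4.13, -4.41 and -4.08 in adenomas and -4.89, -4.63 and -3.92 in healthy small intestine. The log2 fold change of this probe was 0.28 (SE 0.27, limma adjusted p = 0.42), and the groups overlapped. The mean of both probes gave a log2 fold change of 1.04 (limma adjusted p = 0.00586), under the fold limit. Between CT26 and colon this probe was not tested.

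**Figure D2:**
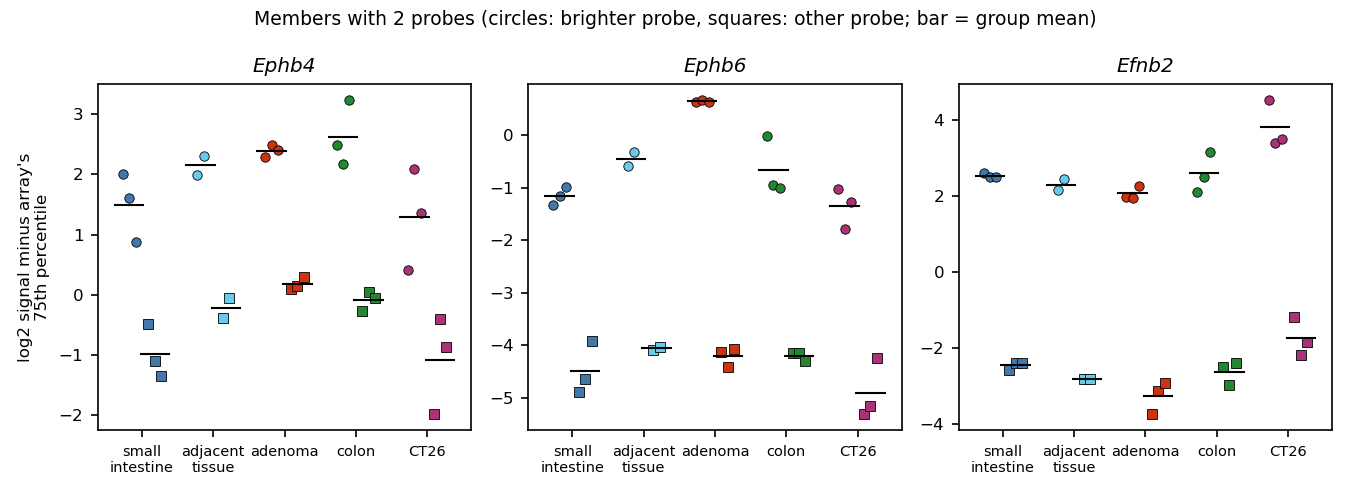
Scaled log2 signal (vertical axis) on every array by group for the genes with 2 probes, with circles for the brighter probe, squares for the other and bars for group means. For *Ephb6* the circles rise to between 0.63 and 0.67 in adenomas, while the squares stay between -5.31 and -3.92 in all groups.

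*Epha2*, an A-type receptor often found in carcinoma cells, was highest in CT26. Its scaled log2 signal was 6.32, 4.65 and 5.33 in CT26, against 0.10, 1.42 and 3.07 in colon, 2.52, 2.54 and 3.33 in small intestine, 2.39 and 2.97 in adjacent tissue and 3.44, 3.36 and 3.07 in adenomas. The CT26 arrays lay above all tissue arrays, and the tissues overlapped with one another except adenomas with colon and adjacent tissue. *Epha2* was called in CT26 against colon, at 15-fold (log2 fold change 3.90, SE 0.76, limma adjusted p = 0.00384). The colon group was spread over 3 units, with replicate 3 the highest, and without that array the log2 fold change was 4.67 (limma adjusted p = 0.000511). Adenomas against colon gave 1.76 (SE 0.71, limma adjusted p = 0.168) with all arrays and 2.53 (limma adjusted p = 0.00817), a call, without colon replicate 3.

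*Epha4*, an A-type receptor that binds ephrins of both types, was present in the tissues and at background in CT26. It read -2.90, -4.49 and -4.90 in small intestine, where 1 of 3 arrays was well above background, -2.94 and -3.12 in adjacent tissue, -2.14, -2.51 and -2.60 in adenomas and -1.38, -1.86 and -2.78 in colon. The CT26 values were -6.77, -7.36 and -7.29, with 0 of 3 arrays well above background. Against colon, *Epha4* was called at least 9.66-fold lower in CT26 (SE 0.41 on the log2 scale, limma adjusted p = 5.17e-05), where the bound sets each dim array at no less than the lowest signal well above background on it. By the same bound, which takes no account of the spread between arrays, the mean of adenomas was 2.66-fold above that of small intestine. The log2 fold change was 1.68 (SE 0.49, limma adjusted p = 0.026), short of the threshold, and small intestine replicate 1 lay apart from the other 2 arrays. Without that replicate the log2 fold change was 2.28 (limma adjusted p = 0.00056), a call. Over all fits with 1 array left out it ranged from 1.28 to 2.28, with a limma adjusted p of up to 0.082. Over alternatives that kept all arrays it ranged from 0.525 to 1.744.

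Among the ligands, *Efnb1*, the B-type ephrin on the X chromosome, showed the largest difference of the 9 genes. Its scaled log2 signal was 5.05, 4.999 and 5.09 in small intestine, 4.41 and 4.54 in adjacent tissue, 3.83, 4.11 and 4.02 in adenomas, 4.86, 4.51 and 5.58 in colon and -5.50, -4.65 and -5.24 in CT26, where 1 of 3 arrays was well above background. *Efnb1* was called at least 899-fold lower in CT26 than in colon (SE 0.39 on the log2 scale, limma adjusted p = 1.62e-06). In adenomas it was 2.09-fold lower than in small intestine (log2 fold change -1.06, SE 0.16, limma adjusted p = 0.00182), past the limit on p and under that on fold. Small intestine, adjacent tissue and adenomas did not overlap, with adjacent tissue between the others. The differences of adjacent tissue from either side (-0.57 from small intestine, limma adjusted p = 0.121, and -0.49 from it to adenomas, limma adjusted p = 0.0868) were not past the threshold.

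*Efna1*, the A-type ephrin that binds *Epha2*, had the same order of groups. It read 3.99, 4.12 and 4.55 in small intestine, 3.48 and 3.42 in adjacent tissue, 2.97, 3.19 and 3.102 in adenomas, 4.15, 3.24 and 4.15 in colon and -0.04, 0.86 and 0.27 in CT26. CT26 lay below all tissues, and unlike *Efnb1* the probe was well above background on every CT26 array. *Efna1* was called 11.2-fold lower in CT26 than in colon (log2 fold change -3.48, SE 0.39, limma adjusted p = 0.000257). In adenomas it was 2.19-fold lower than in small intestine (-1.13, SE 0.20, limma adjusted p = 0.00361), again under the fold limit, and -1.25 (limma adjusted p = 0.00291), a call, without small intestine replicate 1. Over all fits with 1 array left out the log2 fold change ranged from -1.25 to -0.964, with a limma adjusted p of up to 0.0185.

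*Efnb2*, the B-type ephrin of arterial endothelium and of the epithelium, had its highest values in CT26. The values were 2.61, 2.52 and 2.50 in small intestine, 2.17 and 2.45 in adjacent tissue, 1.99, 1.97 and 2.27 in adenomas, 2.12, 2.52 and 3.17 in colon and 4.53, 3.40 and 3.52 in CT26. The CT26 arrays lay above all tissue arrays. The log2 fold change of 1.21 against colon (SE 0.43, limma adjusted p = 0.0448) and that of -0.47 between adenomas and small intestine (SE 0.16, limma adjusted p = 0.0442) were not called. The other probe gave 0.89 (SE 0.36, limma adjusted p = 0.0706) and -0.82 (SE 0.24, limma adjusted p = 0.0249). In 1 fit of all 5 groups the brighter probe was called against colon (limma adjusted p = 0.00508).

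**Figure D3:**
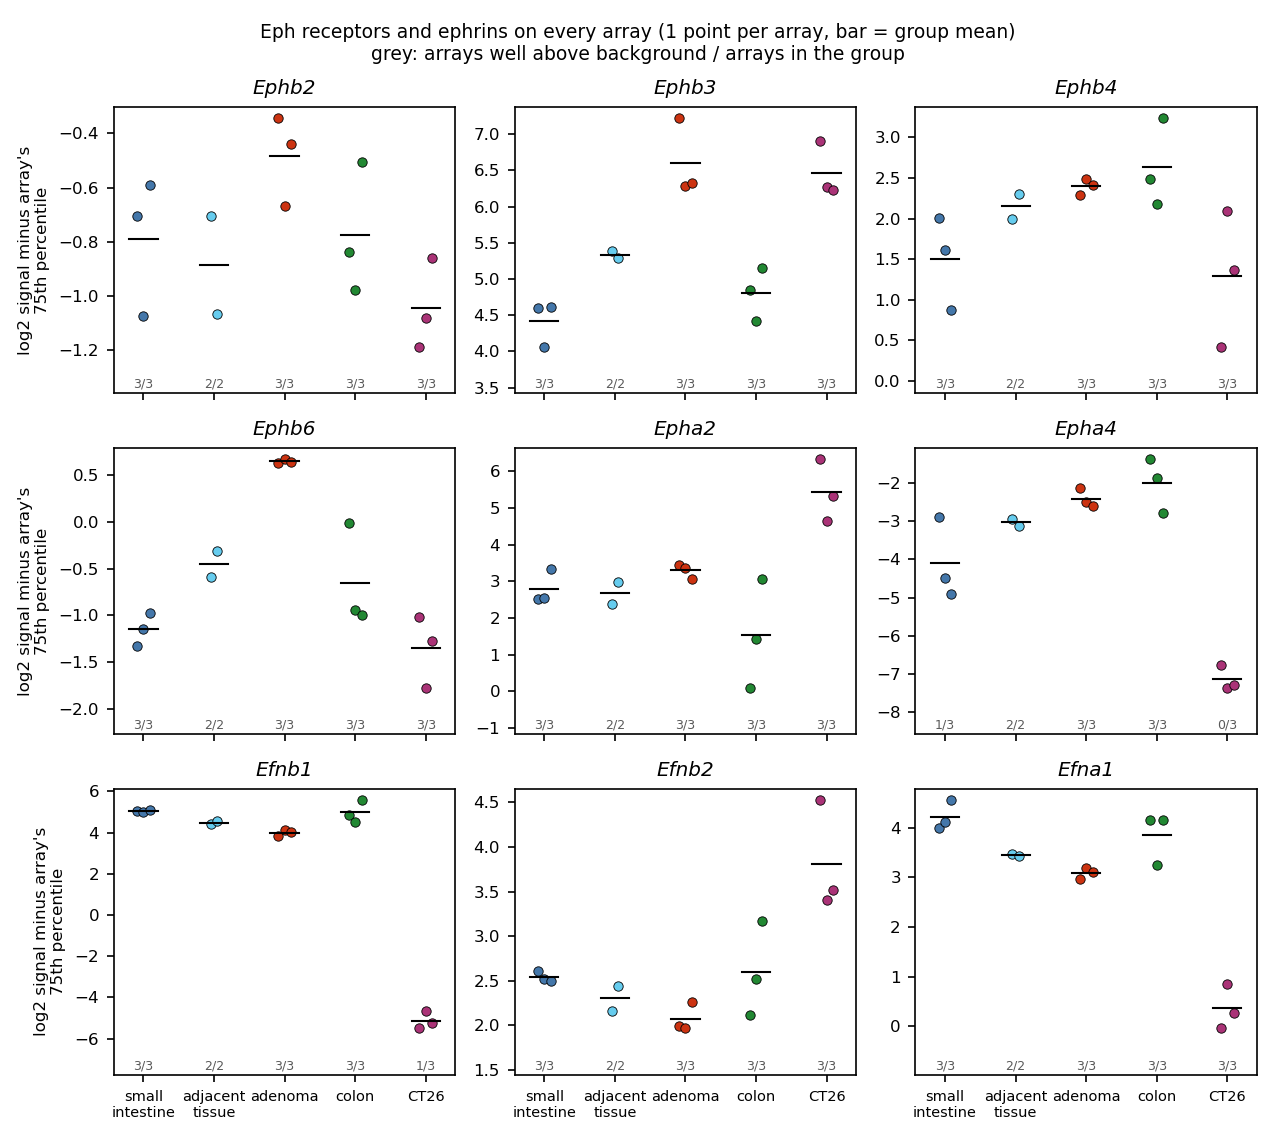
Scaled log2 signal (vertical axis, a scale of its own for each gene) of the 9 genes on every array, by group, with bars for group means and grey figures for the arrays well above background. *Ephb6* stands out in adenomas, *Epha2* and *Efnb2* are highest in CT26, and *Epha4*, *Efnb1* and *Efna1* are lowest there.

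Over the 9 genes, 2 were called between adenomas and small intestine (*Ephb3* and *Ephb6*, both higher), where 22.4% of all 22095 genes tested were called, 11.3% higher and 11.1% lower. The groups did not overlap for 7 of 9, against 65.2% of all genes, and the median log2 fold change was 0.49, against -0.15 over all genes. The receptors *Ephb3*, *Ephb4*, *Ephb6* and *Epha4* had a positive log2 fold change with an adjusted p of at most 0.05, and the ephrins *Efnb1*, *Efnb2* and *Efna1* a negative one, which makes 7 of 9 at that limit, where 52.8% of all genes lay. *Ephb2* and *Epha2* were over it (limma adjusted p = 0.215 and 0.148). Outside the 9 genes the family did not divide in this way. The receptors *Epha5*, *Epha7* and *Ephb1* were called higher, but the receptor *Epha1* lower and the ephrin *Efna4* higher. In CT26 against colon 5 of 9 were called, against 37.2% of 21696 genes (21% higher and 16.2% lower). *Ephb3* and *Epha2* were higher and *Epha4*, *Efnb1* and *Efna1* were lower, while the median over all genes lay at 0.32 in this comparison.

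In the other comparisons limma called 0 of the 9 genes. Between adenomas and adjacent tissue 2 of 9 (*Ephb3* and *Ephb6*) had an adjusted p of at most 0.05, as had 20.2% of all genes, and 4.18% of all genes were called. Between adenomas and colon the same 2 genes did, as did 12.7% of all genes, and 3.7% of all genes were called. Between adjacent tissue and small intestine and between colon and small intestine, 0.00924% and 0.00969% of all genes were called. Of the 9 genes, *Ephb3*, *Ephb6*, *Efnb1* and *Efna1* had an unadjusted p under 0.05 in the former, where 30.6% of all genes had one, and *Ephb4* and *Epha4* in the latter, where 23.9% had one.

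Without colon replicate 3 the same 5 genes were called in CT26 against colon. The share of all genes called without it was not computed. The log2 fold changes were then 1.83 for *Ephb3* and 4.67 for *Epha2*, and they were -5.52 for *Epha4*, -9.82 for *Efnb1* and -3.33 for *Efna1*. Of the genes not called, *Ephb2* had -0.13, *Ephb4* -1.03, *Ephb6* -0.88 and *Efnb2* 1.496 (limma adjusted p = 0.0184). In adenomas against colon *Epha2* was the 1 gene called without that array. *Ephb3* had 1.98 (limma adjusted p = 0.0108), *Ephb6* 1.125 (limma adjusted p = 0.0363), *Ephb2* 0.42 and *Ephb4* 0.07, while *Epha4* had -0.80, *Efnb1* -0.70, *Efnb2* -0.24 and *Efna1* -0.60. Colon against small intestine gave 0 calls by limma without it, with an adjusted p under 0.05 for *Epha2* (-2.04, limma adjusted p = 0.0287) and *Epha4* (2.48, limma adjusted p = 0.0333).

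**Figure D4:**
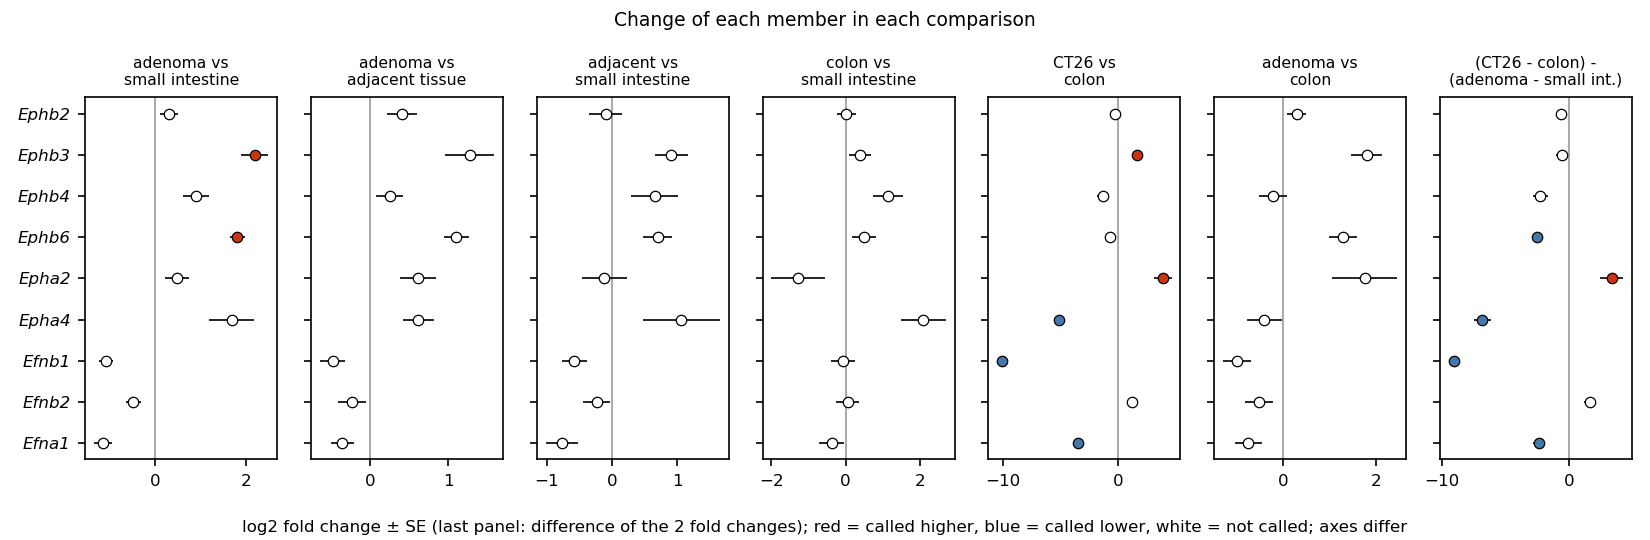
Log2 fold change with its SE (horizontal axis, a scale of its own for each comparison) for the 9 genes in each comparison, with red for genes called higher, blue for genes called lower and white for genes not called. In adenomas against small intestine the receptors among the 9 genes lie to the right of 0 and the 3 ephrins to the left. They run from 2.18 for *Ephb3*, whose probe holds the run of T and G, to -1.13 for *Efna1*.

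Whether a change in CT26 differed from that in adenomas was tested as the difference between the log2 fold change of CT26 over colon and that of adenomas over small intestine, in a fit of those 4 groups. It was called for 5 of 9 genes, where 30.8% of 23446 genes were. *Epha2* differed by 3.41 (SE 0.90, limma adjusted p = 0.00987), *Ephb6* by -2.51 (SE 0.42, limma adjusted p = 0.00061), *Efna1* by -2.35 (SE 0.44, limma adjusted p = 0.00139), *Epha4* by -6.82 (limma adjusted p = 1.74e-05) and *Efnb1* by -9.06 (limma adjusted p = 3.90e-08). The last 2 include CT26 signals at background, so their sizes are not exact. *Ephb3* (-0.52, SE 0.46, limma adjusted p = 0.385) and *Ephb2* (-0.57, SE 0.31, limma adjusted p = 0.162) were not called, and over all genes the median difference was 0.43.

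*Ephb4* and *Efnb2* lay close to the limit in this test. The difference was -2.24 for *Ephb4* (SE 0.61, limma adjusted p = 0.0119) and 1.68 for *Efnb2* (SE 0.47, limma adjusted p = 0.0134), and neither was called by the brighter probe. The other probe of each was called, at -2.15 (SE 0.52, limma adjusted p = 0.00613) and 1.71 (SE 0.43, limma adjusted p = 0.00798). Both genes were also called with normexp background correction, in 1 fit of all 5 groups, with an intensity trend and with the mean of their probes, and *Ephb4* was called with quantile normalisation, in the authors' table and with the stricter filter on dim probes (limma adjusted p from 0.00212 to 0.0096 over these settings). Leaving out colon replicate 3 gave 1.96 for *Efnb2* (limma adjusted p = 0.0035), a call, and leaving out CT26 replicate 2 gave -2.64 for *Ephb4* (limma adjusted p = 0.0044), a call. Other alternatives went the other way. With all arrays kept, the limma adjusted p reached 0.0224 for *Ephb4* and 0.067 for *Efnb2*. With 1 array left out it reached 0.0305 for *Ephb4* and 0.0338 for *Efnb2*. The other probe of *Ephb6* had -0.98 (SE 0.46, limma adjusted p = 0.102).

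The value for *Epha2* in this test passed the limit narrowly, and its adjusted p lay over 0.01 when any of 10 of the 12 arrays was left out, all but colon replicate 3 and CT26 replicate 2, reaching 0.0265. It was also over 0.01 with quantile normalisation, in the authors' table, without a filter on dim probes and with the slide as a block (0.0162 to 0.0251).

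The calls of *Ephb3* and *Epha2* in CT26 against colon were also sensitive to single arrays. *Ephb3* was lost without any array other than colon replicate 3 (limma adjusted p up to 0.0188), and *Epha2* without colon replicate 2, CT26 replicate 1 or CT26 replicate 3 (up to 0.0208), so that 3 genes, all lower, were then called. With the slide as a block the log2 fold changes were 1.71 for *Ephb3* (limma adjusted p = 0.0127) and 3.73 for *Epha2* (limma adjusted p = 0.0116). Every group lay on both of the 2 slides. Within slides the differences were 2.15 and 1.26 for *Ephb3*, 4.40 and 3.06 for *Epha2*, -5.17 and -5.28 for *Epha4*, -9.88 and -9.87 for *Efnb1* and -3.12 and -3.29 for *Efna1*, and in adenomas against small intestine 2.16 and 2.22 for *Ephb3* and 1.79 and 1.82 for *Ephb6*. With normexp background correction, which adds an offset to every signal, the log2 fold change of *Epha4* in CT26 was -1.76 and that of *Efnb1* -7.86.

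Cell type markers moved with these differences. The samples were bulk RNA, so fewer cells of a type and less RNA per cell cannot be told apart. In CT26 against colon 8 of 8 epithelial genes were lower, led by *Krt19* (at least 12600-fold) and *Vil1* (at least 4940-fold), and their summed level ranged from 36.3 to 56.3 on the CT26 arrays against 1410 to 2670 in colon, in units of the array's 75th percentile. *Epcam*, *Cdh1*, *Krt19* and *Vil1* were well above background on 0 of 3 CT26 arrays. The fall was not particular to epithelium. Lower in CT26 were also 8 of 8 smooth muscle, 6 of 8 colonocyte, 3 of 5 T cell, 2 of 7 enterocyte and 2 of 6 endothelial genes. Of 8 fibroblast genes 3 were lower and 2 higher, and 8 of 10 cell division genes were higher. Over all genes tested there 21% were called higher and 16.2% lower. In adenomas against small intestine 5 of 8 endothelial genes were higher (median log2 fold change 2.30), among them *Cdh5* at 3.93, while their summed level was 15.7 to 18.7 against 11.2 to 16.2, ranges that overlap. On the same arrays 3 of 8 fibroblast genes and 8 of 10 cell division genes were higher, 6 of 10 enterocyte genes, 2 of 8 smooth muscle genes and 3 of 7 T cell genes were lower, and of 9 colonocyte genes 3 were higher and 4 lower. Of 8 epithelial genes 1 was higher and 3 were lower (median log2 fold change -0.69). Their summed level was 1550 to 1850 in adenomas against 2320 to 2940 in small intestine, with no overlap. Over all genes tested there 11.3% were called higher and 11.1% lower. The part of these shifts in the values of the Eph receptors and ephrins was not tested.

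The other 13 genes of the family were read in the same way, and 9 of them had a probe tested between adenomas and small intestine. Of these, 4 were higher and 1 was lower, with a median log2 fold change of 0.80. Over all genes 11.3% were called higher and 11.1% lower, with a median of -0.15. *Efna4*, an A-type ephrin, was 4.35-fold higher (log2 fold change 2.12, SE 0.32, limma adjusted p = 0.00193) and was also called against colon, at 3.66-fold (1.87, SE 0.26, limma adjusted p = 0.0095). *Epha7* was at least 3.55-fold higher (limma adjusted p = 0.00592) with 1 of 3 small intestine arrays well above background, and *Ephb1* at least 1.12-fold (limma adjusted p = 0.00948) with 0 of 3. *Epha1*, the first receptor of the family to be described, was 4.17-fold lower (log2 fold change -2.06, SE 0.35, limma adjusted p = 0.00322).

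*Epha5* was called higher in adenomas (log2 fold change 1.85, limma adjusted p = 0.00832) and in CT26 against colon (1.69, limma adjusted p = 0.00556), by the probe shown above with a run of 20 bases. Its other probe, which has no such run, had a mean of -5.67 in small intestine, -4.07 in adenomas, -4.25 in colon and -6.97 in CT26, with 0 of 3, 3 of 3, 2 of 3 and 0 of 3 arrays well above background. The CT26 means of the 2 probes thus lay on opposite sides of the colon means. Between CT26 and colon *Efna5* was also 10.3-fold higher (log2 fold change 3.37, SE 0.37, limma adjusted p = 0.000244) and *Epha1* at least 131-fold lower (limma adjusted p = 2.06e-05), which makes 2 higher and 1 lower of 7 tested. Over all genes 21% were called higher and 16.2% lower there. In the test of the difference between the 2 tumour contrasts *Efna4* (-2.67) was called lower and *Efna5* (2.56) higher. *Epha1*, *Epha7* and *Ephb1* were also called lower, but their CT26 probes were well above background on 2 of 3, 0 of 3 and 0 of 3 arrays, and that of *Ephb1* on 0 of 3 small intestine and 1 of 3 colon arrays, so that no size is given.

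**Figure D5:**
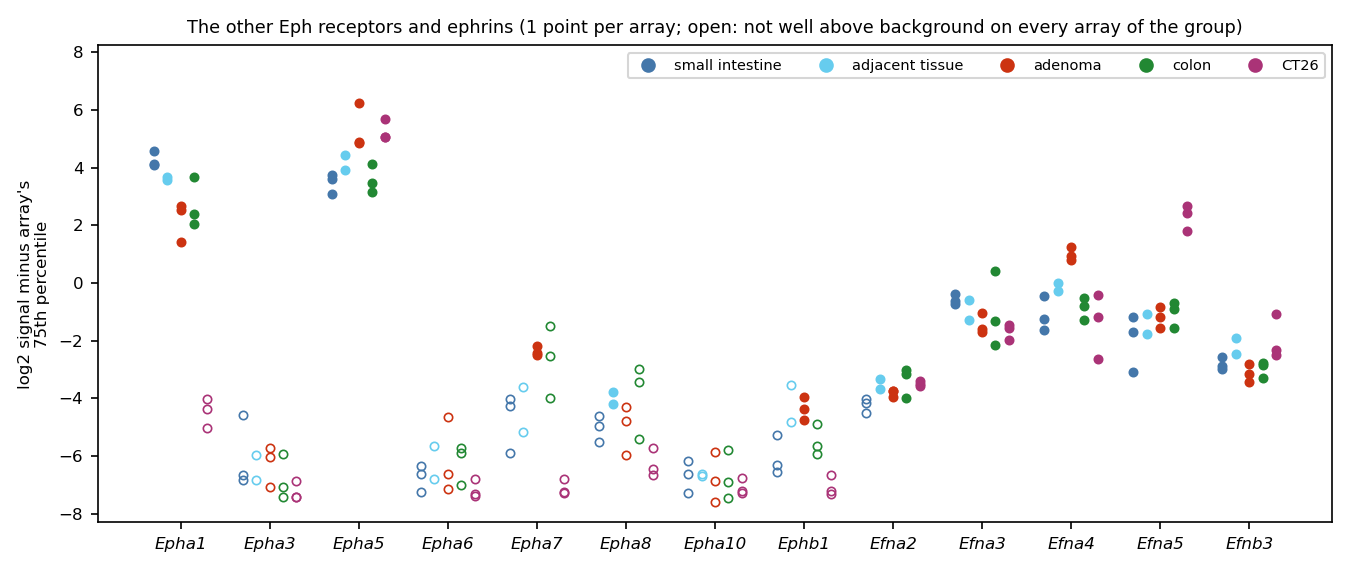
Scaled log2 signal (vertical axis) of the 13 other Eph receptors and ephrins on every array, coloured by group, with open points for groups in which at least 1 array was not well above background. *Efna5* rises in CT26, *Epha1* falls there, and *Efna4* is highest in adenomas.

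Of 30 genes known as signalling or processing partners of Eph receptors and ephrins, 3 were higher and 2 lower between adenomas and small intestine, with a median log2 fold change of -0.32. Over all genes 11.3% were called higher and 11.1% lower, with a median of -0.15. *Kalrn*, a guanine nucleotide exchange factor, was 6.80-fold lower (-2.77, SE 0.21, limma adjusted p = 0.000163), and *Vav2*, another exchange factor, 3.08-fold lower. The Src-family kinase *Fyn* was at least 2.55-fold and the adaptor *Grb10* at least 2.33-fold higher, each with 1 of 3 small intestine arrays well above background. *Itsn1*, an exchange factor partner of B-type receptors, was called higher (1.70), and its probe holds a TG run of 28 bases. In CT26 against colon 6 of 29 tested were higher and 4 lower, where 21% of all genes were called higher and 16.2% lower. The kinase *Abl2* was 8.12-fold higher (3.02, SE 0.37, limma adjusted p = 0.000401), the adaptor *Grb7* at least 528-fold lower (limma adjusted p = 5.65e-07), and *Itsn1* (1.61) and *Arhgef15* (1.72), among the higher, were again read from probes with TG runs of 28 and 20 bases.

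Wnt target genes of the crypt gave the setting for the B-type receptors. Between adenomas and small intestine 11 of 12 were higher, with a median log2 fold change of 2.64, led by *Lef1* (at least 54.4-fold), *Nkd1* (26.3-fold), *Lgr5* (12.3-fold) and *Cd44* (9.71-fold). Over all genes 11.3% were called higher and 11.1% lower there, with a median of -0.15. Against adjacent tissue 5 of 12 were higher, led by *Lef1* (8.98-fold), where 4.18% of all genes were called either way. On the same arrays *Ephb2*, also known as a Wnt target, had a log2 fold change of 0.30 against small intestine by its only probe. The other B-type receptors had 2.18 (*Ephb3*, whose probe holds the TG run), 0.90 (*Ephb4*, brighter probe) and 1.80 (*Ephb6*, brighter probe). Between CT26 and colon 2 of 12 were higher (*Lef1* at 32.7-fold and *Myc* at 12.6-fold) and 6 were lower, led by *Rnf43* (at least 174-fold), *Nkd1* (at least 40.6-fold), *Lgr5* (at least 28.4-fold) and *Ascl2* (at least 62.6-fold), with a median of -3.20. In that comparison 21% of all genes were called higher and 16.2% lower, with a median of 0.32.

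The genes most like each of the 9 over the 14 arrays differed between members. For *Ephb6* they were *Ramp3*, *Nfe2l3* and *Lrrc4* (r 0.953 to 0.959), and for *Epha2* they were *Map4k4*, *1110008F13Rik* and *Cebpb* (r 0.945 to 0.960). *Efnb1* had *Acp5*, *Ppp1r1b* and *Myo1d* (r 0.998), and *Efna1* had *Ckmt1*, *Igsf3* and *Fuca2* (r 0.988 to 0.990), all with the 3 CT26 arrays far from the tissue arrays. *Epha4* was followed most closely by *Paqr5* (r 0.992), *Ephb4* by *Ssbp3* (0.931), and *Ephb2*, which varied little, by *Acsm1* (0.838). Among the 9 genes themselves *Epha2* and *Epha4* had r = -0.824 and *Efnb1* and *Efnb2* -0.810. These are descriptions over arrays of 5 groups, in which a difference between groups dominates r.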

How the data were processed

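Labelled RNA of 14 samples was hybridised to Agilent SurePrint G3 mouse arrays, 1 per sample. Per the file headers, the deposited scanner output was made with Feature Extraction 10.7.3.1 on build mm9, and its processed signal is the intensity of a spot less its background, not scaled between arrays. The authors also deposited a table of normalised log2 values, by a method not given in the sources used here. It served as an alternative only. Left out were its other 28 columns for single samples and its 21 columns of the authors' own fold changes and p-values. Control spots and outlier spots were left out, and values of a probe were averaged. The log2 signal was reduced by the array's 75th percentile. A probe was tested where it was well above background on all arrays of 1 or more of the groups compared. Each pair of groups was fitted on its own arrays by lmFit and eBayes of limma 3.58.1 under R 4.3.3. The difference between the tumour contrasts used 1 fit of 4 groups. The number of arrays limits the precision. The script was tested on simulated data.

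Groups came from the sample labels. The genes and the lists (other family genes, signalling partners, Wnt targets, cell types, cell division) were chosen with earlier results of these data known. All 9 genes were tested in every comparison, and every call among them is named. Of other Eph receptors and ephrins every called gene is named. Of each other list at most 4 called genes per direction with the largest log2 fold change are named. For each of the 9 genes except *Efnb2*, up to 3 genes with the highest r are named. The second probe of *Epha5* and the TG runs were examined after values were seen. The alternatives were normexp, quantile normalisation, the authors' table, other filters, a fit of all groups, slide or replicate blocks, an intensity trend, the mean of a gene's probes, other thresholds and leaving out each array.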

Additional observations from a re-analysis of the deposited data

Results flagged for a closer look

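The change in CT26 over colon differed from the change in adenomas over small intestine for 5 of the 9 genes, by the limma test of the difference itself. Of all genes tested 30.8% were called in it. On the log2 scale the difference was 3.408 for *Epha2*, higher in CT26, and it was -2.506 for *Ephb6*, -2.35 for *Efna1*, -6.818 for *Epha4* and -9.056 for *Efnb1*. *Epha4* and *Efnb1* were well above background on 0 of 3 and 1 of 3 CT26 arrays, so their sizes are not exact. For *Epha4* it ranged from -6.925 to -2.467 over alternatives that kept all arrays. The other probe of *Ephb6* was not called (-0.982, limma adjusted p = 0.102). For *Epha2* the adjusted p lay between 0.000533 and 0.0265 with 1 array left out, and for the others it stayed at or under 0.00505. No group held enough arrays for a test of single arrays that stand apart.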

How the results depend on the processing

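The number of the 9 genes called stayed within 1.5 times its value in 71 of 78 results under alternatives that kept all arrays. Between adenomas and small intestine it was 1 with the mean of a gene's probes and 7 with an adjusted p of at most 0.05 and no fold limit. With that limit it was 2 between adenomas and adjacent tissue and 2 between adenomas and colon, and in 1 fit of all 5 groups it was also 2 between adenomas and colon. Between CT26 and colon it was 3 with the slide as a block and 3 with probes well above background on all arrays of both groups, a filter that removes *Epha4* and *Efnb1*. With 1 array left out the counts ranged from 2 to 4 between adenomas and small intestine, from 3 to 5 between CT26 and colon and from 0 to 1 between adenomas and colon. The share of all genes called was not computed for these fits.

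Reversed signs concerned genes that were not called. Between adjacent tissue and small intestine *Epha2* was 0.186 and *Efnb2* 0.007 with quantile normalisation and 0.205 and 0.01 in the authors' table. Between colon and small intestine *Ephb2* was -0.041 and *Efnb1* 0.273 with quantile normalisation and -0.007 and 0.273 in the authors' table, and *Efnb2* was -0.06 with the mean of its probes. *Ephb4* between adenomas and colon was 0.017 with the mean of its probes. With 1 array left out, *Ephb2* ranged from -0.277 to 0.086 and *Epha2* from -0.405 to 0.168 between adjacent tissue and small intestine. *Ephb2* ranged from -0.127 to 0.118, *Efnb1* from -0.359 to 0.175 and *Efnb2* from -0.225 to 0.3 between colon and small intestine, and *Ephb4* from -0.459 to 0.069 between adenomas and colon. The causes were not tested. *Ephb3* in CT26 against colon was not called with quantile normalisation (1.192, adjusted p = 0.00685) nor without a filter on dim probes (adjusted p = 0.0143).

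Whether the replicate numbers pair the samples was not settled. The deviations of same-numbered arrays from their group means had correlations from -0.322 to 0.291. Deviations from the mean of so few arrays are tied to one another, so these correlations cannot decide it. With the replicate block the counts of calls stayed at 2 between adenomas and small intestine, and *Ephb2* (0.003) and *Epha2* (0.15) changed sign between adjacent tissue and small intestine. *Ephb3* in CT26 against colon (adjusted p = 0.0128) and the difference of *Epha2* between the tumour contrasts (adjusted p = 0.014) were then not called. Between adenomas and adjacent tissue the numbers in the titles, as a block, left 0 genes called by limma. Probes near background, such as those of *Epha4* and *Efnb1* in CT26, give bounds only.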
